A study of Mus musculus with 10 samples.

Results

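The genes described here are 5 seminal vesicle secretory protein genes, Svs2, Svs3a, Svs4, Svs5 and Svs6, and 2 cysteine-rich secretory protein genes, Crisp1 and Crisp3, measured in mouse medullary thymic epithelial cells (mTECs) with and without the transcription factor Fezf2. The genes were listed by name. Each was measured by the probe set, a group of probes for 1 transcript, that had the highest mean signal among those annotated with that gene symbol alone. Of the 7 genes, 6 had such a probe set, out of 18194 genes in all, and 5 had signals high enough to be tested, out of 14087. Crisp1 had no probe set of its own, and Svs6 lay under the filter on low signals, which required a signal above the array's 40th percentile on at least 5 of the 10 arrays. The level of Crisp1 was therefore not measured here.

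The 10 arrays were Affymetrix arrays hybridised with biotin-labelled RNA, 5 from wild-type (WT) mice, named WT 1 to WT 5, and 5 from mice lacking Fezf2 (KO), named KO 6 to KO 10. Mice of both groups were 3 weeks old and on a C57BL/6 background. Cells of both groups were sorted from thymus as lacking the leukocyte marker CD45, carrying the epithelial marker EpCAM and having high levels of CD80, which mature mTECs use to costimulate T cells. The sex of the mice, the deleted part of Fezf2 and the cells in which it was deleted are not labelled. Nor is it labelled whether each array had a mouse of its own, so the p-values speak only of array-to-array spread, part of which may be technical.

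mTECs transcribe many genes that otherwise belong to single peripheral organs, which exposes developing T cells to the proteins of those organs. Aire and Fezf2 are transcription regulators known for their part in this. Svs genes encode the main secreted proteins of the seminal vesicle. Svs2 and Svs3a belong to the semenogelin-like proteins, which transglutaminase cross-links into the copulatory plug, and Svs4, Svs5 and Svs6 encode small secreted proteins of the same locus. Svs2 protein has been described as a target of autoimmunity against the prostate in Aire-deficient mice. Crisp proteins are secreted members of the CAP superfamily. Crisp1 is made in the epididymis and binds to sperm, and Crisp3 is made in the salivary gland and has also been found in B-lineage cells.

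The sequences before the annotated starts show how the genes resemble each other in that region. They come from RefSeq, build GRCm38.p6. All 7 genes were matched by symbol in its promoter table, and Svs3b, the neighbouring copy of Svs3a, was matched too. The 120 bases before each start are given 5′ to 3′ on the strand of the gene, with every TATAAA on that strand, the letters of a TATA box, in capitals.
Svs2, chr2:164238342-164238461, minus strand: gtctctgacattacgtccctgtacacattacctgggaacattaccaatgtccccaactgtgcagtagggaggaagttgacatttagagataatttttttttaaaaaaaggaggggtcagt
Svs3a, chr2:164289147-164289266, plus strand: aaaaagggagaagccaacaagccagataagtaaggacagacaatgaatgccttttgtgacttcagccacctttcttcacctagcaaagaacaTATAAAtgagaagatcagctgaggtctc
Svs4, chr2:164278308-164278427, minus strand: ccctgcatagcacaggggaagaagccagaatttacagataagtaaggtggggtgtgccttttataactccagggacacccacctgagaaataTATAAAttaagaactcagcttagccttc
Svs5, chr2:164332645-164332764, plus strand: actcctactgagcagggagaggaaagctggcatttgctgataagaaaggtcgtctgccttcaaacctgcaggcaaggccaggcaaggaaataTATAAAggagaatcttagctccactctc
Svs6, chr2:164316631-164316750, plus strand: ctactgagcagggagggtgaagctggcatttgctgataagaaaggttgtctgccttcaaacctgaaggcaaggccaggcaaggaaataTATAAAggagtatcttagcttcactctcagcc
Crisp1, chr17:40319208-40319327, minus strand: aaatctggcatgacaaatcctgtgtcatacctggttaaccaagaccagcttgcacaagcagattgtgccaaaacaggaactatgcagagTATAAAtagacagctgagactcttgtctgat
Crisp3, chr17:40242289-40242408, minus strand: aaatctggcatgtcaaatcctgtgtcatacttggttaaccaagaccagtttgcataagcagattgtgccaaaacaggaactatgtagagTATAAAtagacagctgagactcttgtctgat
TATAAA on the strand of the gene lay within the 50 bases before the start in 6 of the 7 genes, the exception being Svs2, against 863 of 32851 promoters in the table (2.63%). Its first base was 28 bases before the start in Svs3a, Svs4 and Svs5, 32 before it in Svs6 and 31 before it in both Crisp genes. GATAAG, searched on both strands of the 300-base window from 250 bases before to 50 after the start, was found in Svs3a, Svs4, Svs5 and Svs6, and in 7.44% of all promoters. Searched in the same way, TATAAA was found in 7 of the 7 genes and 13.6% of promoters. AGAACA, the letters of an androgen half-site, was found in 4 of the 7 genes and 19.0% of promoters. Such matches describe letters, not sites in use. The motifs were chosen after the sequences were seen, so the counts beside the shares of all promoters are descriptions and show no enrichment. Over the 300-base windows, Svs5 and Svs6 were 93.8% identical, Crisp1 and Crisp3 95.7%, and Svs3a and Svs3b 97.7%. Motif matches within such a pair are therefore not separate. Identity in the other 19 pairs of the 7 genes lay between 45.8% and 61.0%. Related copies can also share probe sequence, but no probe or transcript sequence was compared here. How far the levels of Svs3a, Svs5, Svs6 and Crisp3, or of the other genes, hold signal from related genes was therefore not tested.

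Fezf2 itself had a mean signal of 5475 ± 350.0 in WT and 15.0 ± 2.77 in KO (SD, n = 5 each), with every KO array far below every WT array. Aire, the other regulator, fell 1.36-fold (limma, adjusted p = 0.0282). Of 14087 genes tested, 2281 fell and 1838 rose in KO, and the median log2 change was -0.03. WT 1 and KO 6 stood apart from the other arrays, with mean poly-A spike-in signals of 537 and 759 against 115 to 422, and mean 18S rRNA signals of 3445 and 3762 against 765 to 1774. Xist, the RNA that coats the silenced X chromosome in female cells, was at 21.1 on WT 2, 26.9 on KO 6 and 30.0 on KO 8, while all others had 5304 to 6100. Both patterns were treated as blocks in alternative fits. All 8 markers of the sorted cells and their gate were tested, of which Aire fell, Krt5 rose (log2 change 0.71, limma adjusted p = 0.00263) and 6 did not pass the threshold, among them Epcam, at 7344 in WT and 7695 in KO. Of other cell types, the endothelial genes Pecam1, Cdh5 and Kdr rose (3 of 3 tested). Their list summed to 101 to 219 in WT and 202 to 288 in KO. Pecam1 was above the filter limit on 1 WT and 5 KO arrays, so it was tested through the group where it is high. Its call adds no support, though the count and sum of the list include it. Without WT 1 and KO 6, Cdh5 and Kdr rose (2 of 2 tested). Of 6 myeloid genes, Csf1r, Lyz2, Adgre1 and Cd14 fell and Itgam rose, and the sum was 5673 to 6247 in WT and 3798 to 4751 in KO. Most of that sum was Lyz2, with means of 4291 in WT and 3187 in KO. Over all genes tested, 16.2% fell and 13% rose. Of 3 cortical epithelial genes, Ly75 fell (limma adjusted p = 0.0229). Without WT 1 and KO 6, Psmb11 and Prss16 of that list rose (limma adjusted p = 0.0102 and 0.0455). None of the tested thymocyte (7), fibroblast (4) and erythroid (1) genes passed with all arrays, and the fibroblast gene Pdgfrb fell without WT 1 and KO 6 (limma adjusted p = 0.0217). The part of these cell types in the values below was not tested. Of the markers of male germ cells, 2 of 6 were high enough to be tested (Prm1 and Prm2), and neither passed the threshold. The summed signal of all 6 was 145 to 191 in WT and 178 to 216 in KO.

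Of the 5 tested genes, 1 was lower in KO past the threshold, Crisp3, and 0 were higher. All 4 tested Svs genes had higher means in KO, by 1.08-fold to 1.29-fold, but with all 10 arrays in the fit (limma with Benjamini-Hochberg adjustment over 14087 genes) none of the 4 passed an adjusted p of 0.05. The unadjusted p was under 0.05 for Svs2 and Svs4. Over all genes tested, 29.2% passed in either direction, 16.2% lower and 13% higher. The median log2 change of the 5 genes was 0.24, against -0.03 over all genes tested. In none of the 5 were the WT and KO arrays free of overlap, while KO lay wholly below WT in 12% of all genes tested and wholly above WT in 10.1%. Left out together, WT 1 and KO 6 changed these counts to 0 lower and 2 higher (Svs4 and Svs5) of 4 genes fitted, against 17.5% lower and 13.8% higher over all genes fitted. All fold changes are on the log2(signal + 16) scale, on which low signals show less than their true change. In such bulk samples, fewer cells that express a gene and less RNA per cell cannot be told apart.

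**Figure D1:**
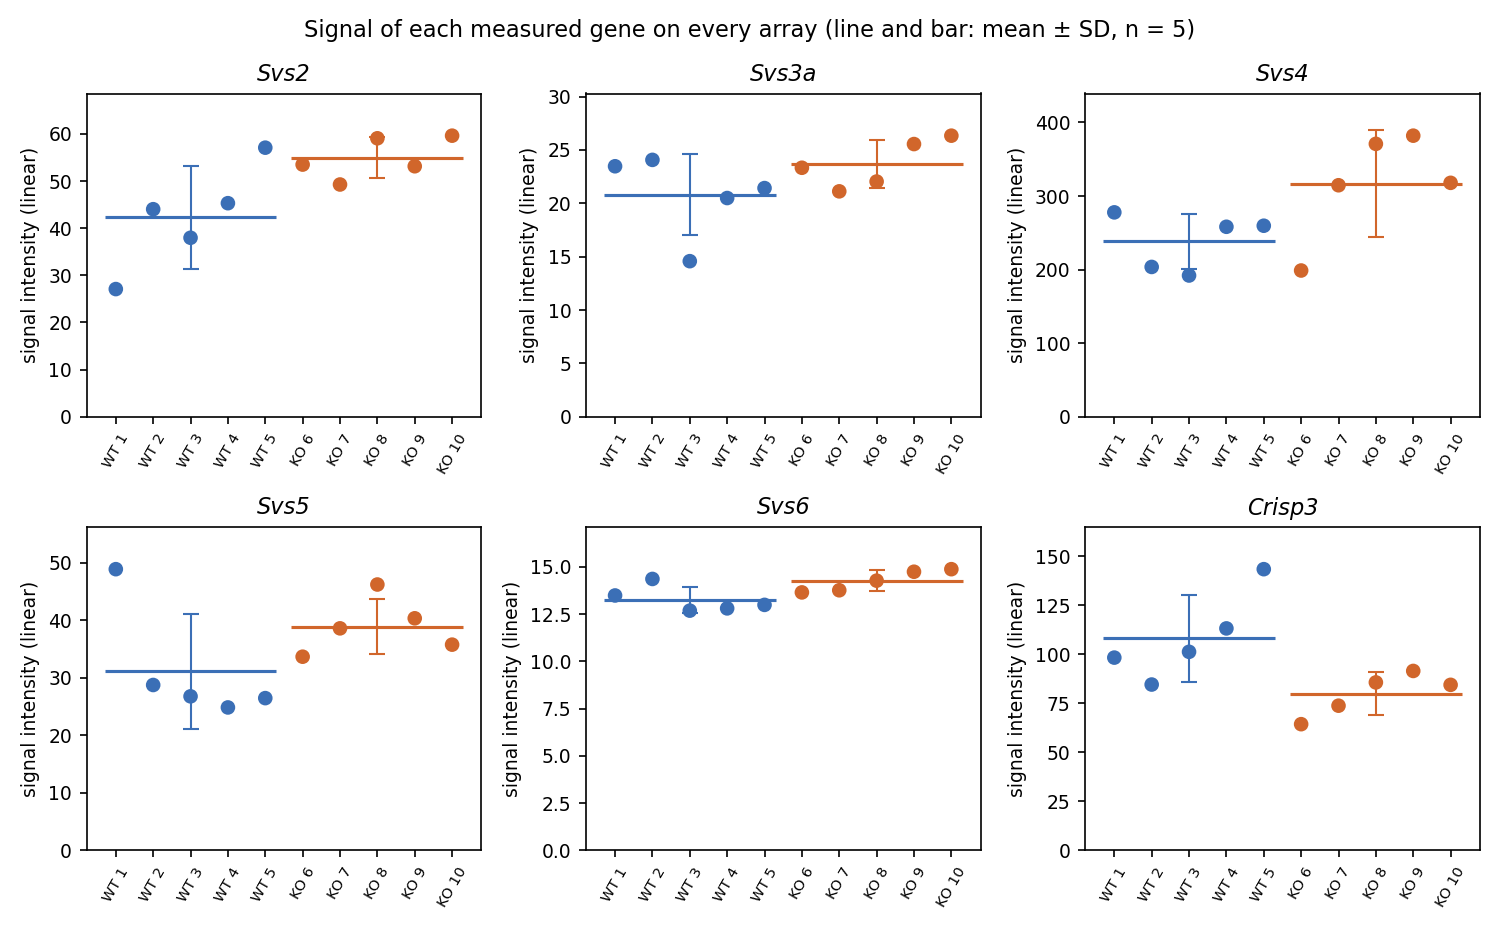
Deposited linear signal intensity (y axis, from 0) of the 6 genes with a probe set of their own on each of the 10 arrays (x axis; blue WT, orange KO), with a horizontal line and bar for the mean ± SD of each genotype (n = 5). The Svs genes sit slightly higher in KO with overlapping arrays, WT 1 is the highest WT array for Svs5 and the lowest for Svs2, KO 6 is the lowest KO array for Svs4, and 3 KO arrays of Crisp3 sit below the lowest WT array.

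Svs2, the semenogelin-like protein of the copulatory plug, had signals of 27.1, 44.0, 38.0, 45.3 and 57.1 on WT 1 to WT 5 and of 53.5, 49.3, 59.1, 53.1 and 59.6 on KO 6 to KO 10. The KO arrays were all above 4 of the 5 WT arrays, and only WT 5 reached into their range. The mean was 42.3 ± 11.0 in WT and 54.9 ± 4.37 in KO, a log2 change of 0.30 (SE 0.12, 95% interval 0.05 to 0.56) that did not pass the threshold (limma adjusted p = 0.0737, exact two-sided permutation p = 0.0317). The value depended on single arrays. Svs2 passed without WT 5 (log2 change 0.39, limma adjusted p = 0.0187) and in the fit that blocked on WT 1 and KO 6 (0.30, limma adjusted p = 0.0353). It was 0.20 both without WT 1 (limma adjusted p = 0.123) and without WT 1 and KO 6 together (limma adjusted p = 0.13). The exact test of a single gene runs over every way to divide the arrays 5 and 5, cannot go below 0.00794 and is unadjusted. It was run on the 13 probe sets that name one of the 7 genes and on 14 further genes. A second Svs2 probe set had means of 9.21 in WT and 9.13 in KO and was above the array's 40th percentile, 21.5 to 22.1, on 0 arrays.

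Svs3a, whose product is also cross-linked in the plug, had signals of 23.5, 24.1, 14.6, 20.5 and 21.4 in WT and of 23.3, 21.1, 22.0, 25.5 and 26.3 in KO. These signals stood at the filter limit, with 2 WT and 4 KO arrays above it, so the level can hardly be told from that of the dimmest probe sets. The mean was 20.8 ± 3.77 in WT and 23.7 ± 2.23 in KO, and the log2 change of 0.11 (SE 0.08, 95% interval -0.05 to 0.28) did not pass the threshold (limma adjusted p = 0.292). Without WT 3, the lowest array, it was 0.05 (limma adjusted p = 0.601). The 2 probe sets annotated for both Svs3a and Svs3b had means of 12.4 and 9.67 over all arrays and were above the 40th percentile on 0 arrays.

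Svs4, which encodes a small secreted protein of the seminal vesicle, had signals of 277.9, 203.7, 192.0, 258.3 and 259.7 in WT and of 198.8, 314.7, 370.9, 382.1 and 318.0 in KO. Of the KO arrays, 4 lay above every WT array, and KO 6 lay near the lowest WT arrays. The mean was 238 ± 37.9 in WT and 317 ± 72.7 in KO, and the log2 change of 0.37 (SE 0.16, 95% interval 0.02 to 0.72) did not pass the threshold (limma adjusted p = 0.104, exact permutation p = 0.0873). Without KO 6, the WT arrays lay between 192.0 and 277.9 and the KO arrays between 314.7 and 382.1, and Svs4 passed with a log2 change of 0.52 (limma adjusted p = 0.00443). KO 6 was 1 of the pair of arrays with the highest spike-in and rRNA signals and 1 of the 3 arrays with low Xist, and Svs4 did not pass with WT 1 and KO 6 set as a block (0.37, limma adjusted p = 0.0828) or with Xist signal as a block (0.42, limma adjusted p = 0.061). It passed without WT 1 and KO 6 together (0.57, limma adjusted p = 0.00217) and with array weights (0.46, limma adjusted p = 0.00524).

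Svs5, a small secretory protein gene nearly identical to Svs6 before its start, had signals of 48.9, 28.8, 26.8, 24.9 and 26.5 in WT and of 33.7, 38.6, 46.3, 40.4 and 35.8 in KO. WT 1 was the highest of all 10 arrays, and the other 4 WT arrays lay below every KO array. The mean was 31.2 ± 10.0 in WT and 38.9 ± 4.82 in KO, and the log2 change of 0.24 (SE 0.12, 95% interval -0.02 to 0.50) did not pass the threshold (limma adjusted p = 0.154, exact permutation p = 0.119). Without WT 1, the WT arrays lay between 24.9 and 28.8 against 33.7 to 46.3 in KO, and Svs5 passed with a log2 change of 0.36 (limma adjusted p = 0.00338). Weighting the arrays gave the same call (0.37, limma adjusted p = 0.00307). With WT 1 and KO 6, the arrays of high spike-in and rRNA signals, set as a block, it did not pass (0.24, limma adjusted p = 0.113).

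Svs5 was measured by 5 probe sets, which allows the WT 1 value to be read again on the same RNA. WT 1 was the highest WT array in 5 of 5, and the KO mean was higher than the WT mean in 5 of 5. In the other 4 probe sets the log2 difference between KO and WT means was 0.06, 0.19, 0.09 and 0.27, with exact permutation p-values of 0.5, 0.143, 0.389 and 0.119. Their signals stood near the filter limit, above it on 8, 5, 6 and 4 of the 10 arrays, so the agreement between probe sets carries little weight. These probe sets shared the RNA of each array and may share probe sequence with related genes, so that they are not independent measurements.

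**Figure D2:**
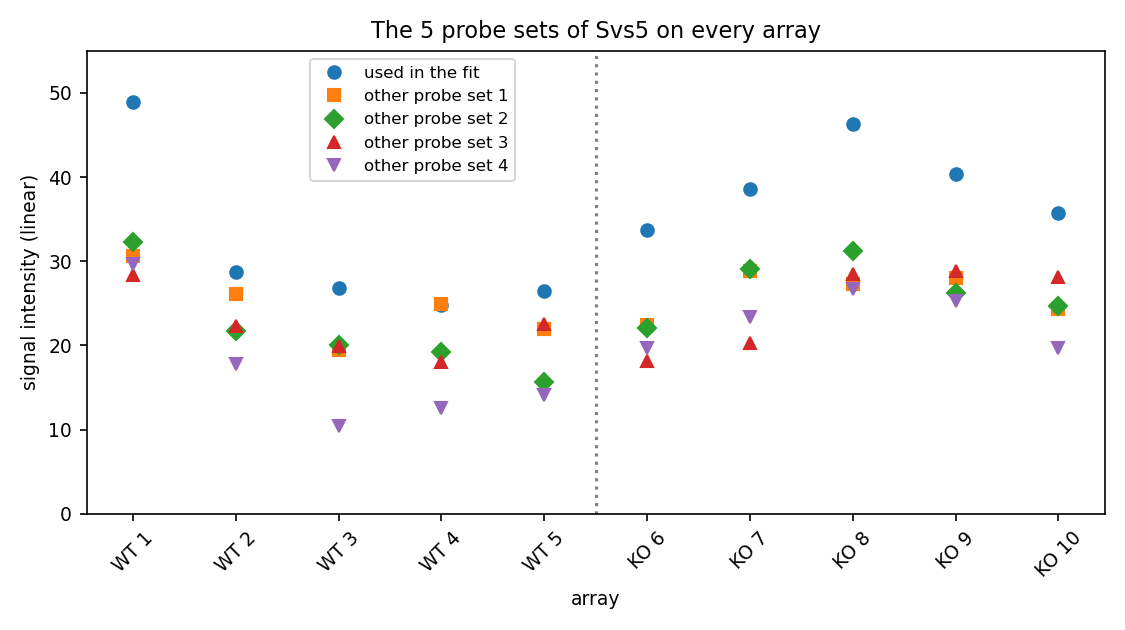
Deposited linear signal intensity (y axis) of the 5 probe sets of Svs5 on each array (x axis), with WT left and KO right of the dotted line and 1 symbol per probe set. WT 1 is the highest WT point of all 5 probe sets, at 48.9 in the probe set used in the fit.

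Svs6 had signals between 12.7 and 14.4 in WT and between 13.6 and 14.9 in KO, under the 40th percentile on all 10 arrays. Its mean was 13.3 ± 0.685 in WT and 14.3 ± 0.556 in KO, and in a fit without a filter its log2 change was 0.05 (limma adjusted p = 0.253). At this signal the array gives no measured level of Svs6 to compare.

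Crisp3, the salivary gland member of the cysteine-rich secretory proteins, fell 1.29-fold in KO. Its signals were 98.4, 84.6, 101.3, 113.3 and 143.5 in WT and 64.4, 73.8, 85.7, 91.5 and 84.5 in KO. On 3 KO arrays the signal lay below every WT array, and KO 8 and KO 9 lay within the WT range. The mean was 108 ± 22.2 in WT and 80.0 ± 10.8 in KO, a log2 change of -0.36 (SE 0.12, 95% interval -0.63 to -0.10; limma adjusted p = 0.0415, exact permutation p = 0.0238). The call was close to the threshold. It was lost in 7 of the 10 fits without 1 array, namely without WT 3, WT 4, WT 5, KO 6, KO 7, KO 8 or KO 10, where the log2 change lay between -0.38 and -0.27 and the adjusted p between 0.0545 and 0.0891. It was also lost without WT 1 and KO 6 together (-0.33, limma adjusted p = 0.0732) and with Xist signal as a block (-0.32, limma adjusted p = 0.0608). The change was negative in all 23 alternatives, between -0.43 and -0.25.

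Since B-lineage cells have been found to express Crisp3, their markers are given beside it. Of 8 B-cell markers, 7 had a probe set of their own and 5 were tested. Cd79b, a chain of the B-cell receptor complex, fell from 229 ± 19.4 to 141 ± 10.2 (limma adjusted p = 6.21e-05). Vpreb1, a chain of the surrogate light chain, fell from 28.2 ± 3.69 to 20.3 ± 3.40 (limma adjusted p = 0.0184). Only 2 KO arrays of Vpreb1 were above the filter limit, against 5 WT arrays. Vpreb1 thus met the filter through the group where it is high, and its call adds no support. Ms4a1, which encodes the B-cell surface protein CD20, rose from 61.2 ± 5.20 to 83.3 ± 6.44 (limma adjusted p = 0.00288). Igll1 and Cd22 did not pass the threshold, and Cd79a and Pax5 lay under the filter. The summed signal of the 7 was 472 to 546 in WT and 396 to 433 in KO. Cd79b had the highest signal of the 7 and weighs most in this sum, which is therefore no level of B-lineage cells. The part of B-lineage RNA in the Crisp3 value was not tested.

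**Figure D3:**
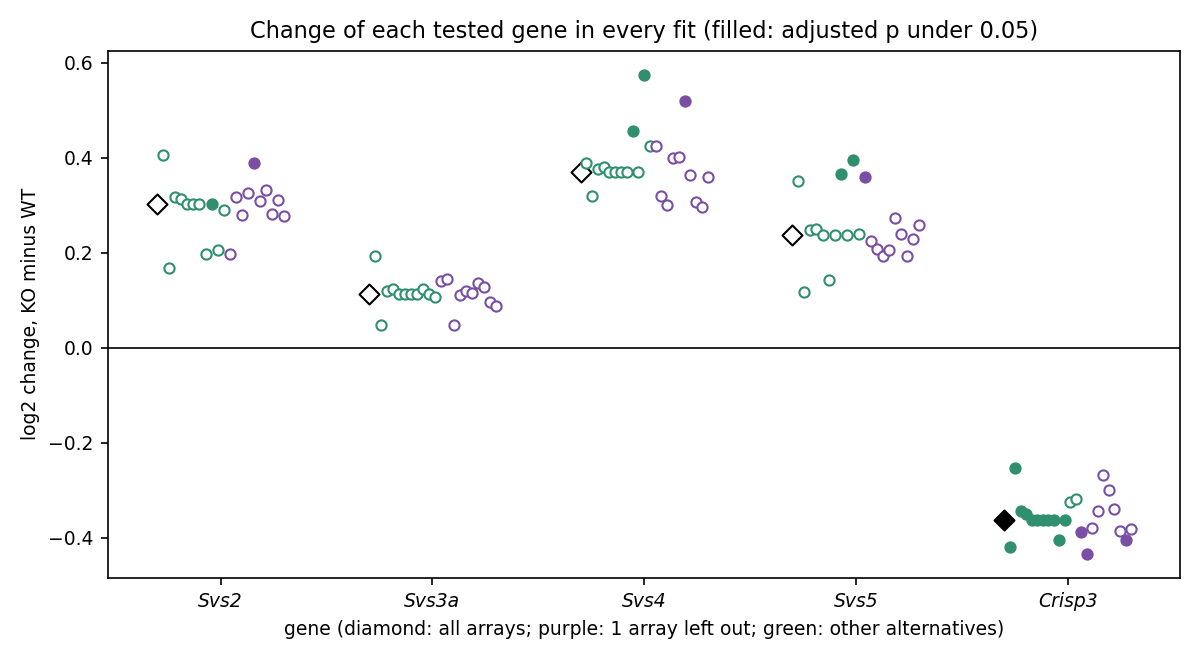
Log2 change, KO minus WT (y axis), of the 5 tested genes (x axis) in the fit of all arrays (diamond), in fits without 1 array (purple) and under other alternatives (green), with filled symbols for an adjusted p under 0.05. Every Svs point is above 0 and every Crisp3 point below 0, while most Svs points and 9 of the 23 alternatives of Crisp3 are open.

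The changes of Svs2, Svs4 and Svs5 were set against that of Crisp3. These pairs were chosen after the values were seen, so their p-values are descriptions. The change of each tested Svs gene was compared with that of Crisp3 by an exact two-sided permutation test of the difference of their log2 signals on each array, 1 of 3 such families of 4 pairs, with p-values adjusted over all 12. The pairs with Svs3a are not read, since its signal stood at the filter limit. The change of Svs2 exceeded that of Crisp3 by 0.66 (exact p = 0.00794, adjusted p = 0.0159) and that of Svs4 by 0.73 (exact p = 0.00794, adjusted p = 0.0159). For Svs5 the difference was 0.60 (exact p = 0.0238, adjusted p = 0.0357). Without WT 1 and KO 6, where the smallest possible p over 70 divisions is 0.0286, the differences were 0.53 for Svs2, 0.90 for Svs4 and 0.72 for Svs5, each with an exact p of 0.0286.

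Between arrays of 1 genotype, the SD of log2 signals in WT was 0.28 for Svs2, 0.27 for Svs5, 0.25 for Crisp3 and 0.22 for Svs4, above those of 91.3%, 90.8%, 87.7% and 83.3% of all genes tested, whose median was 0.13. In KO, Svs4 had an SD of 0.36, above 96.3% of genes, with KO 6 as the one array far below the rest, while Svs2 and Svs3a had SDs of 0.09 and 0.08, below the median of 0.12. WT 1 was the lowest WT array for Svs2 and the highest for Svs5 and Svs4.

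Whether the genes varied together was tested over the 10 arrays after subtracting each genotype's mean, for 15 pairs of 6 genes. Pearson's r was above 0 in 12 pairs, and 0 of 15 passed an adjusted p of 0.05. Every pair with Svs3a or Svs6 rests on signals at or under the filter limit, so the count of positive pairs is not read. Svs3a and Svs6 had the highest r, 0.739 (permutation p = 0.0348, adjusted p = 0.261), with Spearman's rho 0.83 (permutation p = 0.00557, adjusted p = 0.0835) and r 0.722 without WT 2 and WT 3. Both had signals near or under the filter limit. Svs4 and Crisp3 had an r of 0.662 (permutation p = 0.0291, adjusted p = 0.261) and a rho of 0.685 (permutation p = 0.0391, adjusted p = 0.293), with r 0.598 without WT 3 and KO 6. Svs2 and Svs5 had the lowest r, -0.69 (permutation p = 0.147, adjusted p = 0.549), with a rho of -0.515 (permutation p = 0.16, adjusted p = 0.45). It was 0.051 without WT 1 and WT 5, so that the negative value rests on those arrays.

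The tested genes whose signals followed each gene most closely over the same 10 arrays, by Pearson's r after the same subtraction, were Stab1 (0.971), Gps2 (0.951) and Samd10 (0.947) for Svs2. They were Ccdc61 (0.936), Rpl37 (0.923) and Elobl (0.901) for Svs3a, and Elmo1 (0.964), Hexa (0.95) and Prg4 (0.947) for Svs4. For Svs5 they were Dennd5b (0.963), Casp1 (0.957) and Ehd2 (0.954), and for Crisp3 Pabpc1 (0.958), Rcc1 (0.952) and Sp3 (0.934). No Svs or Crisp gene was among the 3 closest of another. These are the highest of 14087 values over 10 shared arrays and are given as a description.

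The Svs genes lie in 1 locus with genes for WAP four-disulfide core (WFDC) proteins, which include secreted protease inhibitors, and in the RefSeq gene order Wfdc15b precedes Svs2, Svs3b and Svs4 follow it, and Slpi follows Svs5. Of the 13 neighbours (6 on each side and Svs3b), 9 had a probe set of their own and 6 were tested, of which 3 rose and 0 fell, against 13% and 16.2% of all genes tested. Wfdc12 was at 177.1, 188.2, 162.6, 190.1 and 217.2 in WT and at 1747.6, 1034.4, 921.0, 1045.2 and 1116.5 in KO, a 5.73-fold rise (limma adjusted p = 3.45e-07). Wfdc15b rose 4.25-fold, from 128 ± 12.5 to 617 ± 216 (limma adjusted p = 4.64e-06). In both genes every KO array lay above every WT array. Slpi, secretory leukocyte protease inhibitor, rose 1.24-fold, from 1047 ± 87.6 to 1306 ± 129 (limma adjusted p = 0.0108), and its arrays overlapped. Matn4, Sdc4 and Sys1 did not pass the threshold, and Wfdc5, Wfdc15a and Rbpjl lay under the filter. Without WT 1 and KO 6, the counts were again 3 higher and 0 lower of 6.

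In pairs also chosen after the values were seen, whose p-values are descriptions, Wfdc15b rose more than Svs2, Svs4 and Svs5 beside it. The differences were 1.79 on the log2 scale for Svs2, 1.72 for Svs4 and 1.85 for Svs5 (exact permutation p = 0.00794 and adjusted p = 0.0159 for each). The change of Slpi was not shown to differ from theirs, with differences of 0.01 for Svs2, -0.06 for Svs4 and 0.07 for Svs5 (exact permutation p between 0.492 and 0.968). Around the Crisp genes, 2 of 12 neighbours had a probe set of their own. AY036118 was the single tested one (log2 change 0.02, limma adjusted p = 0.937), and Pgk2 lay under the filter.

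**Figure D4:**
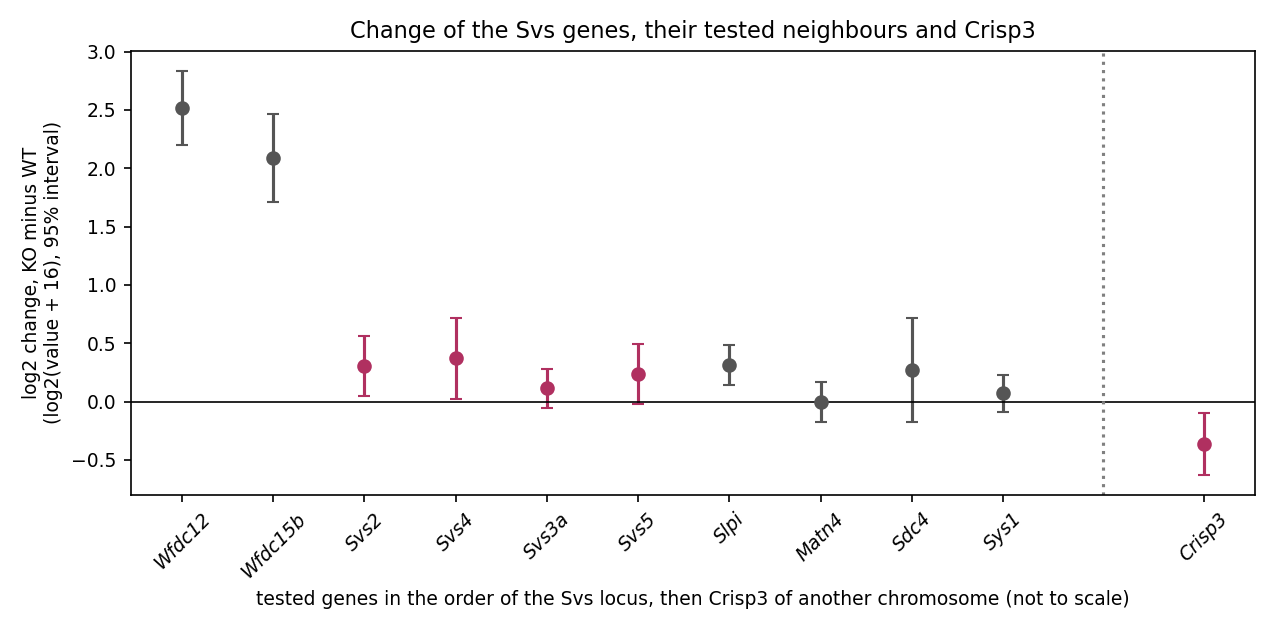
Log2 change, KO minus WT, with its 95% interval (y axis), of the tested genes in the order of the Svs locus, not to scale, and of Crisp3 on another chromosome (x axis; red Svs and Crisp genes, grey neighbours). Wfdc12 and Wfdc15b stand above 2, the 4 Svs genes lie between 0.11 and 0.37, and Crisp3 lies at -0.36.

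Other secretions of the male tract were set beside the Svs genes, with no test between the lists. Over all genes tested, 16.2% fell and 13% rose, and with 3 to 8 genes tested a list, their counts are descriptions. Of 16 other names of seminal vesicle and prostate secretion genes, older synonyms included, 9 had a probe set of their own and 4 were tested, of which 2 fell and 0 rose, with a median log2 change of -0.56. Pate4, a small seminal vesicle protein gene also known as Svs7, was at 40.3, 39.2, 22.4, 29.1 and 52.2 in WT and at 12.6, 19.6, 20.8, 22.4 and 19.3 in KO, a log2 change of -0.57 (limma adjusted p = 0.00791). Only 1 KO array was above the filter limit, against 5 WT arrays, so Pate4 was tested through the group where it is high and its call adds no support. The count and median of its list include it. Klk1b24, of the tissue kallikreins, fell from 102 ± 15.4 to 54.5 ± 16.2 (log2 change -0.76, limma adjusted p = 0.00182). Tgm4, the prostate transglutaminase that cross-links semenogelin-like proteins, had a log2 change of -0.01 (limma adjusted p = 0.963). Spink1, the remaining tested gene, did not pass (log2 change -0.55, limma adjusted p = 0.181). Its change was -0.31 without WT 1 and KO 6 (limma adjusted p = 0.391), so the median of this list depends on those arrays. Of the 25 epididymal secretion genes, 3 were tested and 2 fell, with a median of -0.37. They were the lipocalin gene Lcn8, which fell from 99.3 ± 10.2 to 61.3 ± 10.5 (limma adjusted p = 0.00111), and Adam7, which fell from 42.2 ± 6.15 to 28.9 ± 2.73 (limma adjusted p = 0.00374). The same counts of both lists were found without WT 1 and KO 6.

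Crisp3 was set beside other salivary and lacrimal secretions and beside its own superfamily. Of 17 names of salivary and lacrimal genes, older synonyms included, 8 were tested, with a median log2 change of -0.29. Against 13% higher and 16.2% lower over all genes tested, 0 of the 8 rose and 3 fell. They were Obp1a (-0.75, limma adjusted p = 3.9e-05), Lcn11 (-0.59, limma adjusted p = 0.000787) and Prol1 (-0.67, limma adjusted p = 0.0307). Obp1a was above the filter limit on 5 WT and 0 KO arrays, so that it too was tested through WT alone. Its call adds no support, though the count and median of the list include it. Without WT 1 and KO 6, Obp1a lay under the filter and 1 of 7 fell (Lcn11), against 17.5% of all genes fitted. Of the 13 other CAP superfamily genes, 5 were tested and 1 rose, with a median of -0.06. That gene, Crispld1, rose from 64.7 ± 8.22 to 115 ± 29.0 (log2 change 0.67, limma adjusted p = 0.00305), and every KO array lay above every WT array. Without WT 1 and KO 6, Crispld1 rose and Glipr2 fell past the threshold. Of the other regulators tested, Foxa1, a forkhead transcription factor of prostate epithelium, fell from 980 ± 38.3 to 719 ± 59.5 (limma adjusted p = 0.000311), and Hoxb13, a homeobox gene of the prostate, did not pass (-0.35, limma adjusted p = 0.24) but fell past the threshold without WT 1 and KO 6 (-0.61, limma adjusted p = 0.0119).

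**Figure D5:**
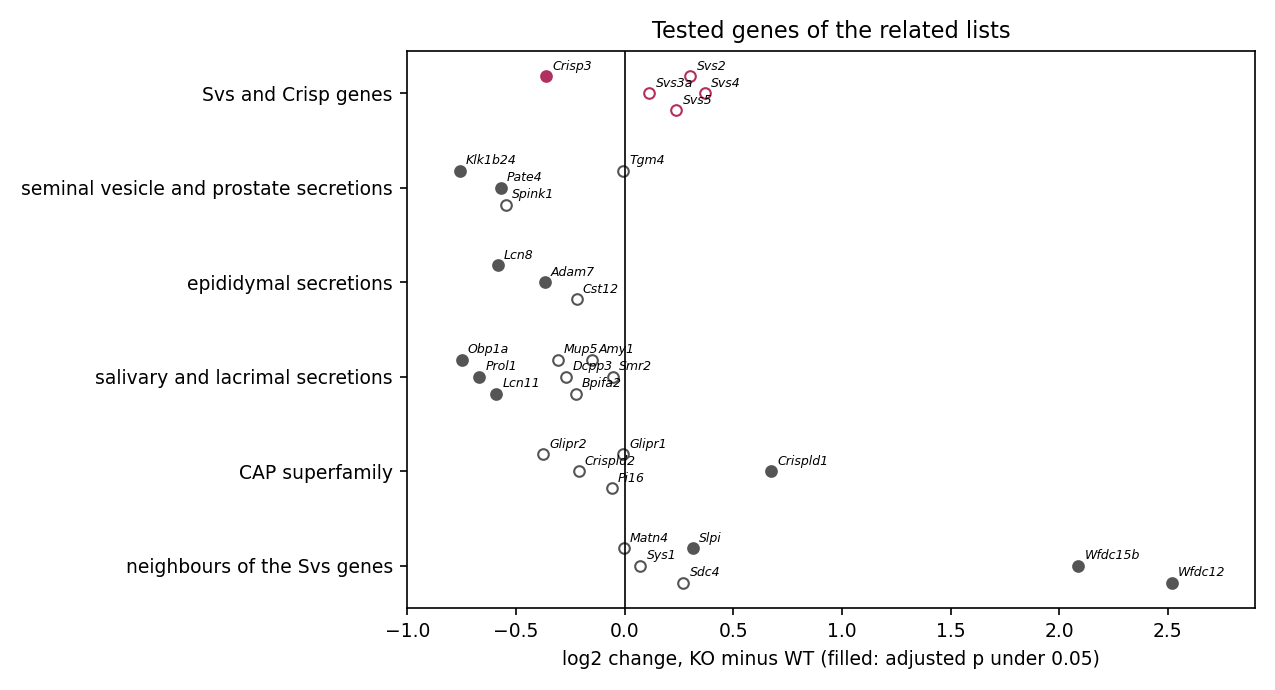
Log2 change, KO minus WT (x axis), of every tested gene in the Svs and Crisp set (red) and in 5 related lists (grey), 1 row per list, with filled points for an adjusted p under 0.05. The Svs genes lie right of 0 and Crisp3 left of it, and Wfdc12 and Wfdc15b lie farthest to the right. The filled points of the male tract and salivary lists lie left of 0, but among them Pate4 and Obp1a were tested through the WT arrays.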

How the data were processed

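The authors deposited 1 linear signal intensity for each probe set and array. The submitters' processing notes name MAS5 alone, with no version, and how signals were scaled, background-corrected or filtered is not given in the sources used here. The annotation gave 1 symbol for 34958 of 45101 probe sets, several for 932 and none for 9211, and 34754 were matched to RefSeq (GRCm38.p6) by Entrez identifier. Array 40th percentiles lay between 21.5 and 22.1. The 23581 probe sets kept gave 14087 genes, each by its brightest probe set.

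Signals were analysed as log2(value + 16), KO minus WT, with limma 3.58.1 in R 4.3.3 (lmFit, eBayes with trend and robust estimation), without further normalization, and Benjamini-Hochberg adjustment at 0.05. The procedure was tested on simulated data. Single values were compared by exact two-sided permutation, and correlations by 100000 permutations within genotype.

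The 7 genes, the gene lists, the alternatives on WT 1, KO 6 and Xist and the rule for named genes (the 7 genes, their 3 closest genes, neighbours, Fezf2, Aire and list genes past the threshold) were chosen with earlier results of these data known. List genes that did not pass are named to complete a description. The tests of differences between changes and the motifs were chosen after the values and sequences were seen. Alternatives covered offsets, scaling, filters, probe sets, array weights, blocks and arrays left out.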

Additional observations from a re-analysis of the deposited data

Results flagged for a closer look

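The Svs5 signal of WT 1 was 48.9, while the other WT arrays lay between 24.9 and 28.8. The gap was 0.838 of the range of the WT arrays, which is more than Dixon's 95% critical value for 5 samples. Of 12 groups checked, 6 genes in both genotypes, 1 stood out in this way, and chance alone marks about 1 in 20 groups. WT 1 also had the highest spike-in and 18S rRNA signals among the WT arrays, and the part of these in the value was not tested.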

How the results depend on the processing

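No sign of the 5 tested genes changed under any of the 21 to 23 alternatives run for each. The count of genes lower in KO was 1 with all arrays and 0 without WT 1 and KO 6, with Xist signal as a block and at an adjusted p threshold of 0.01, and lay between 0 and 1 with single arrays left out. The count higher in KO was 0 with all arrays, 2 with array weights, 1 when WT 1 and KO 6 formed a block and 2 without both arrays, and lay between 0 and 1 with single arrays left out. The median log2 change of the genes fitted, 0.24, was 0.0037 with the filter at the 60th percentile and -0.12 without probe sets of the suffixes for shared sequence. In both only 2 of the genes could be fitted, Svs4 and Crisp3 in the first and Svs3a and Crisp3 in the second. The probe sets fitted for Svs2, Svs4 and Svs5 all carry one of these suffixes. The changes of these 3 genes, and the differences from them, could therefore not be fitted without such probe sets. Changing the offset to 1 or 64, centring or quantile-normalizing the arrays, dropping the filter and fitting without a variance trend changed none of the 5 calls. Over all genes, 5563 were called with array weights, against 4119 without them, and 5098 when WT 1 and KO 6 formed a block. Leaving out single arrays gave between 3413 and 4171 calls. No paired analysis was possible because the replicate numbers of WT and KO arrays are not shared. Signals of Svs3a and Svs6 near or under the filter limit, and 5 arrays in each group, limit what can be read from these data. The list counts and differences between changes without WT 1 and KO 6 were added after seeing the data.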
